A study of Homo sapiens with 6 samples.

Results

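The genes that decide whether a cell enters another division were followed at the level of chromatin accessibility: the D cyclins CCND1, CCND2 and CCND3, the E cyclins CCNE1 and CCNE2, the CDK inhibitors of the CIP/KIP family CDKN1A, CDKN1B and CDKN1C, and the inhibitors of the INK4 family CDKN2C and CDKN2D. All sites of the deposited site table that overlap the gene interval of one of these 10 genes, extended by 50000 bases on each side, were taken, which gave 175 of 181135 sites. Of these, 173 had enough counts to be tested. The number of sites ran from 7 at CCNE2 to 33 at CCND3, with 22 at CCND1, 9 at CCND2, 17 at CCNE1, 30 at CDKN1A, 13 at CDKN1B, 16 at CDKN1C, 9 at CDKN2C and 19 at CDKN2D. Site names and positions are those of the deposited table, on build hg38, written here counted from 1.

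D cyclins bind CDK4 and CDK6 and E cyclins bind CDK2, and these kinases phosphorylate the retinoblastoma protein, which frees E2F factors to switch on the genes of DNA synthesis. INK4 proteins block CDK4 and CDK6, whereas CIP/KIP proteins bind cyclin and CDK complexes more widely. Megakaryocytes leave the mitotic cycle as they mature and copy their DNA without dividing, so both the cyclins and the inhibitors are known subjects of work on this lineage.

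The samples were K562 cells, an established line from a chronic myelogenous leukaemia, of wild-type genotype. The 6 h and 72 h groups were treated for these times with the phorbol ester PMA, an activator of protein kinase C, at 25 nM, with changes of medium after 24 and 48 h, and the 0 h group had no time in PMA. Each group had 2 ATAC-seq libraries, in which a transposase tags open chromatin, so that reads at a site measure how accessible it is. No label says whether the libraries of a group came from separate cultures, so the p-values measure the spread between these libraries, which may be technical.

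Counts in the listed sites summed to between 12258890 and 35548737 per library, and the 6 h group held both the shallowest library and one of 33634403 counts. Levels are given as CPM, the usual scaled read count of a site, here with library sizes corrected by TMM factors, and changes as log2 fold changes with their standard error (SE). Adjusted p-values are from edgeR's quasi-likelihood test over all 177759 tested sites, and below 0.05 a site counts as called, higher or lower by its sign. Among K562 marker genes, 8 of 9 had a start site with a peak in both 0 h libraries (KLF1 had none), but so had 5 of 12 marker genes of other cell types. In bulk libraries, fewer cells with an open site and less opening per cell cannot be told apart.

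The promoter sequences of 5 members are shown first, because their start sites carry the main contrasts of the results: CDKN1A was higher at 6 h, CCNE1, CDKN1B and CDKN2D were lower at 72 h, and CCND3 has several starts that moved differently. Each window holds 250 bases before to 50 bases after a start from RefSeq (GRCh38.p14), printed 5′ to 3′ on the strand of the gene. Capitals mark GC boxes (GGGCGG on either strand) and CCAAT boxes (CCAAT on either strand).
CDKN1A promoter, chr6:36678464-36678763, plus strand: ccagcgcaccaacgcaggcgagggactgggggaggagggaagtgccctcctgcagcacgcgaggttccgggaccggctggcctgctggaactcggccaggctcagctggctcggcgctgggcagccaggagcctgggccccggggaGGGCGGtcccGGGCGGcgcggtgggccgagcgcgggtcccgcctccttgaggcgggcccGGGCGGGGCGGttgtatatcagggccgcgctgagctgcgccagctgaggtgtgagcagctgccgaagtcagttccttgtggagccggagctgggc
CDKN1B promoter, chr12:12717118-12717417, plus strand: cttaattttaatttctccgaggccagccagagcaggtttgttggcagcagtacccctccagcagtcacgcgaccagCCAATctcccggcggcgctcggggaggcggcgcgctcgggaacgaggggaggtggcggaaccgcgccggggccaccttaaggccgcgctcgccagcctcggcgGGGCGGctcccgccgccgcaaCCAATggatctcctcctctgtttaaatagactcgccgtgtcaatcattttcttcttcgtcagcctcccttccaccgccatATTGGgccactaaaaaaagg
CCNE1 promoter, chr19:29811741-29812040, plus strand: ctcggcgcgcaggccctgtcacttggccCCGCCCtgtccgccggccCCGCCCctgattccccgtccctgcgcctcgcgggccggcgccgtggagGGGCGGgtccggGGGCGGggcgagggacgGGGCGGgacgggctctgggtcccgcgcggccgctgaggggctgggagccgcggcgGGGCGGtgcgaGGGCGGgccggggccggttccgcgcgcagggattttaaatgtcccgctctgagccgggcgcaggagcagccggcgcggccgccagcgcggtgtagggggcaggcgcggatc
CDKN2D promoter, chr19:10568930-10569229, minus strand: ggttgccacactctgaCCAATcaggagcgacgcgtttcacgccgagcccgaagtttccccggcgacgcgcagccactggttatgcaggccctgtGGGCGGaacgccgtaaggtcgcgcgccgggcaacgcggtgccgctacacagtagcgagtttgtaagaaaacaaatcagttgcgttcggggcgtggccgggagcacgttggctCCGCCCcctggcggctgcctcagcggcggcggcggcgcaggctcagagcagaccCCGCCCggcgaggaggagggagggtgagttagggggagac
CCND3 promoter, chr6:41941759-41942058, minus strand: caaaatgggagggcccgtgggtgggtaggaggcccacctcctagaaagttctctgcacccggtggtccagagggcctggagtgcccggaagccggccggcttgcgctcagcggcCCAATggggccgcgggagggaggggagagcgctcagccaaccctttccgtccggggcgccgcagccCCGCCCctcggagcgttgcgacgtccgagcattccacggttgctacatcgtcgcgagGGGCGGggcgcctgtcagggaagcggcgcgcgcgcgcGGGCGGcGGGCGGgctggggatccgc

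The CDKN1A window held 4 GC boxes, of which a pair overlap, and no CCAAT box. CCNE1 had 7 GC boxes and a GC content of 81.0%, while CDKN1B had 1 GC box and 3 CCAAT boxes at a GC content of 62.3%. The CDKN2D window held 3 GC boxes and 1 CCAAT box, and the CCND3 window 4 and 1. Of 35116 RefSeq promoters of this length, 45.0% held a GC box and 34.6% a CCAAT box. RefSeq windows were found for 6 members, 10 windows in all, and each overlapped a listed site, 8 of them lying wholly inside it. Other motifs were searched on both strands and were found in no window of a member. These were the AP-1 motif TGANTCA, held by 7.71% of all promoters, and the CRE motif TGACGTCA, held by 1.85%. The GATA motif GATAAG was held by 6.36% of all promoters and the RUNX motif TGTGGT by 13.1%. For E2F, any of TTTGGCGC, TTTCCCGC, TTTGGCGG and TTTCGCGC was searched, and 3.35% of all promoters held one. These counts describe letters within the windows only.

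Sites within 1000 bases of a member's start were called its start sites. Where the gene table gave no strand (CCND1, CCND2, CCNE2 and CDKN1C), both ends of the gene were used, which added a site just past the 3′ end of CCND1. Of the 14 sites so found, 1 was called higher and 9 lower at 6 h against 0 h. Over the 17721 tested sites at starts of protein-coding genes, 46.5% were called in that comparison, 8.23% higher and 38.3% lower, and over all tested sites 40.1%, 23.4% higher and 16.8% lower. The 17721 sites likewise include both ends of any gene without a strand, so some lie at 3′ ends, as at CCND1. All shares and ranks among gene starts refer to this set. At 72 h against 0 h, 12 member sites were lower and 1 was higher, the site past the 3′ end of CCND1, which is not a start, beside 82.7% of all gene starts called (9.69% higher, 73.0% lower) and 67.4% of all tested sites (38.2% higher, 29.2% lower). From 6 to 72 h, 2 were higher and 11 lower, where 70.7% of all gene starts (5.02% higher, 65.7% lower) and 42.9% of all tested sites (22.1% higher, 20.9% lower) were called. The median log2 fold change of the 14 sites was −0.61 at 6 h and −1.57 at 72 h, beside −0.38 and −1.21 at all gene starts. No overlap between the libraries of the groups was seen at 12 of the 14 sites at 6 h and at 14 of 14 at 72 h against 0 h. The share of all gene starts without overlap was not computed, so these counts cannot be set against a general rate. Both comparisons with 0 h share the same 0 h libraries, and the 10 calls at 6 h became 6 without replicate 2 at 0 h and 6 without replicate 1 at 6 h.

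**Figure D1:**
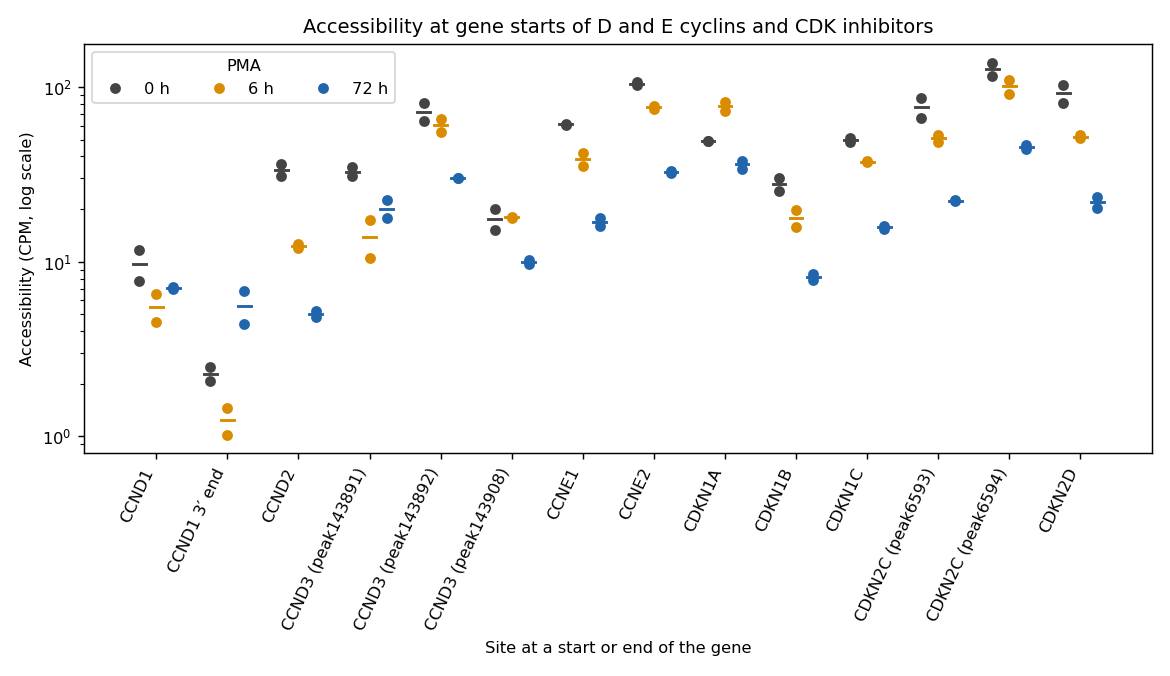
Accessibility in CPM (log axis) of the 14 sites at starts or ends of the 10 genes, with 1 point per library, a short bar at the mean of the 2 libraries and colour by time in PMA. The CDKN1A points at 6 h (72.9 and 82.2) lie above those at 0 h, and the CCND2 points step down from 31.1 and 36.2 at 0 h to 5.25 and 4.83 at 72 h.

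The start site of the D cyclin CCND2 had the most negative log2 fold change of the 14 sites at both times. Its site, chr12:4271690-4273042, lies just upstream of the gene interval and does not overlap it. It measured 31.1 and 36.2 CPM at 0 h, 11.9 and 12.7 CPM at 6 h and 5.25 and 4.83 CPM at 72 h. All 3 groups were apart from each other, with the values stepping down at each time. The log2 fold change was −1.45 (SE 0.18, adjusted p = 1.5e-06) at 6 h and −2.74 (SE 0.19, adjusted p = 2.7e-10) at 72 h. Only 2.05% of all gene start sites had a lower log2 fold change at 6 h, and 0.796% at 72 h. A window of 500 bases in place of 1000 would not have counted it as a start site.

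CCND1, the cyclin best known as a target of growth factor signals, had a weak start site, chr11:69640767-69641467. Its level was 7.73 and 11.7 CPM at 0 h, 4.52 and 6.51 CPM at 6 h and 7.14 and 6.96 CPM at 72 h. The 6 h values were below those at 0 h (log2 fold change −0.79, SE 0.25, adjusted p = 0.016), whereas the 72 h values lay just below the 0 h range (−0.47, SE 0.24, adjusted p = 0.086). The sign of this 72 h value depended on the scaling: it was 0.0302 with total counts and 0.50 with shared-peak factors (TMM factors from sites that had a peak in all 6 libraries), but −0.66 with RLE and −0.69 with loess offsets (adjusted p = 0.0225 and 0.013). The call at 6 h was lost without replicate 2 at 0 h (−0.44, adjusted p = 0.243) or without replicate 1 at 6 h (−0.58, adjusted p = 0.116). Just past the 3′ end of the gene, chr11:69654619-69655838 moved the other way: 2.08 and 2.48 CPM at 0 h, 1.02 and 1.45 CPM at 6 h and 4.42 and 6.77 CPM at 72 h. This site rose by 1.29 on the log2 scale at 72 h against 0 h (SE 0.30, adjusted p = 0.00083) and by 2.11 against 6 h. Of all gene start sites, 99.0% lay below the latter value, but this site is not a start. From 6 to 72 h, gene starts had a median of −0.83, with 5.02% called higher. Sites away from gene starts had a median of 0.13, with 23.9% called higher, and the rank among them was not computed. The rise against 0 h was no longer called without replicate 2 at 72 h (0.94, adjusted p = 0.0556) or with loess offsets (0.66, adjusted p = 0.0603).

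The third D cyclin, CCND3, has 3 start sites, and they did not move together. The strongest, chr6:41941194-41942450, which holds the window printed above, measured 63.5 and 80.8 CPM at 0 h, 55.3 and 65.7 CPM at 6 h and 29.95 and 30.1 CPM at 72 h. The 0 h and 6 h values overlapped, and the 72 h values lay below both (log2 fold change −1.27 against 0 h, SE 0.15, adjusted p = 2.3e-07, but 0.21 with loess offsets). A neighbouring start, chr6:41939224-41939961, fell first: it had 30.9 and 34.6 CPM at 0 h, 10.5 and 17.3 CPM at 6 h and 17.7 and 22.4 CPM at 72 h. Its log2 fold change was −1.21 at 6 h (SE 0.20, adjusted p = 5.7e-05), with 3.53% of all gene starts lower, and −0.71 at 72 h (SE 0.19, adjusted p = 0.0031), the latter turning to 0.08 with loess offsets and 0.26 with shared-peak factors. From 6 to 72 h it rose by 0.50 (adjusted p = 0.046), a call lost without replicate 1 at 6 h (0.22, adjusted p = 0.444) or without replicate 2 at 72 h (0.38, adjusted p = 0.28), and 0.99 without replicate 2 at 6 h. The call at 72 h against 0 h was lost without replicate 1 at 72 h (−0.55, adjusted p = 0.0659). The far upstream start, chr6:42048393-42049065, had 15.2 and 20.02 CPM at 0 h, 18.1 and 17.8 CPM at 6 h and 9.72 and 10.3 CPM at 72 h, a log2 fold change of −0.82 at 72 h (SE 0.19, adjusted p = 0.00059) that turned to 0.15 with shared-peak factors.

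Both E cyclin starts fell at each step with TMM scaling. CCNE1, which drives entry into S phase with CDK2, had its start site at chr19:29811116-29812440. This measured 61.5 and 60.6 CPM at 0 h, 41.7 and 35.4 CPM at 6 h and 17.8 and 16.0 CPM at 72 h, with no overlap between groups. The log2 fold change was −0.67 at 6 h (SE 0.15, adjusted p = 0.0011) and −1.85 at 72 h (SE 0.15, adjusted p = 1.8e-09), and 6.03% of all gene starts were lower at 72 h. CCNE2, its close relative, shares its start site, chr8:94894820-94896902, with the start of NDUFAF6, a mitochondrial assembly gene, so the reads cannot be given to either gene alone. The shared site had 102 and 107 CPM at 0 h, 74.8 and 77.9 CPM at 6 h and 32.3 and 33.0 CPM at 72 h, again without overlap. It fell by 0.45 on the log2 scale at 6 h (SE 0.13, adjusted p = 0.0077) and by 1.68 at 72 h (SE 0.13, adjusted p = 1.1e-09), and 13.0% of all gene starts were lower at 72 h. With loess offsets the changes were 0.05 and −0.02, and without replicate 1 at 6 h the 6 h change was −0.42 (adjusted p = 0.0622).

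CDKN1A, which encodes the inhibitor p21, was the only member whose start site was called higher at 6 h. The site, chr6:36678324-36680958, lies within the gene interval and spans the window printed above. It measured 48.8 and 49.2 CPM at 0 h, 72.9 and 82.2 CPM at 6 h and 37.9 and 34.1 CPM at 72 h. Both 6 h values were above, and both 72 h values below, all values at 0 h. The log2 fold change was 0.66 at 6 h (SE 0.14, adjusted p = 0.00062), a 1.58-fold rise, and 89.9% of all gene starts lay below it. At 72 h it was −0.44 against 0 h (SE 0.14, adjusted p = 0.0075) and −1.11 against 6 h (SE 0.14, adjusted p = 3e-06). The fall against 0 h was smaller than at most gene starts, as 76.8% of them had a lower value, and the call was lost without replicate 2 at 72 h (−0.37, adjusted p = 0.0863). Its sign at 72 h depended on the scaling: it was 0.06 with total counts, 0.52 with shared-peak factors, and 1.04 with loess offsets. The rise at 6 h was called under each of the 5 scalings tried, at 0.52 to 1.08.

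The other CIP/KIP starts fell. CDKN1B, which encodes p27, shares its start site, chr12:12716732-12717679, with the start of the receptor gene GPR19. It had 25.5 and 30.2 CPM at 0 h, 15.8 and 19.8 CPM at 6 h and 7.81 and 8.51 CPM at 72 h, each group apart from the others. The log2 fold change was −0.64 at 6 h (SE 0.18, adjusted p = 0.0075) and −1.77 at 72 h (SE 0.18, adjusted p = 3.9e-08). CDKN1C, which encodes p57 and is imprinted, had 48.5 and 50.7 CPM at 0 h, 37.5 and 37.2 CPM at 6 h and 15.5 and 16.0 CPM at 72 h at chr11:2884652-2886329. Replicates of CDKN1C were close, and the groups did not overlap. Its log2 fold change was −0.41 at 6 h (SE 0.15, adjusted p = 0.029) and −1.66 at 72 h (SE 0.15, adjusted p = 5.5e-09). The 6 h calls of both were lost in some fits that left 1 library in a group. CDKN1B was at −0.50 without replicate 2 at 0 h and −0.49 without replicate 1 at 6 h. CDKN1C stayed near its full value, at −0.37 without replicate 2 at 0 h, −0.41 without replicate 1 at 6 h and −0.46 without replicate 2 at 6 h. Both calls also depended on the scaling. With shared-peak factors CDKN1B was at −0.34 (adjusted p = 0.135) and CDKN1C at −0.11 (adjusted p = 0.558). CDKN1C was at −0.27 with total counts (adjusted p = 0.125) and −0.17 with loess offsets (adjusted p = 0.326).

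Start sites of the INK4 inhibitors were lower at 72 h as well. CDKN2D, which encodes p19, had the most accessible start per kilobase at 0 h, 88.6 CPM per kb, beside 18.6 CPM per kb at CDKN1A. Its site, chr19:10568595-10569633, measured 81.4 and 103 CPM at 0 h, 50.9 and 53.2 CPM at 6 h and 23.5 and 20.2 CPM at 72 h. The groups stepped down without overlap, with a log2 fold change of −0.82 at 6 h (SE 0.15, adjusted p = 0.00012) and −2.07 at 72 h (SE 0.15, adjusted p = 5.4e-10). At 72 h 2.91% of all gene starts were lower. CDKN2C, which encodes p18, has a pair of start sites, of which chr1:50959401-50960773 is shared with the start of FAF1. The shared site had 66.0 and 86.6 CPM at 0 h, 48.5 and 53.0 CPM at 6 h and 22.2 and 22.5 CPM at 72 h. It fell by 0.59 at 6 h (SE 0.15, adjusted p = 0.0034) and by 1.77 at 72 h (SE 0.15, adjusted p = 3.5e-09), with the 6 h call lost without replicate 2 at 0 h (−0.37, adjusted p = 0.0834). The second CDKN2C start, chr1:50967899-50970370, had 115 and 138 CPM at 0 h, 91.1 and 110 CPM at 6 h and 46.5 and 44.3 CPM at 72 h. Its log2 fold change was −0.33 at 6 h (SE 0.14, adjusted p = 0.056) and −1.48 at 72 h (SE 0.14, adjusted p = 8.8e-09), the latter turning to 0.36 with loess offsets.

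The depth of the fall at 72 h depended on how the libraries were scaled, since the median of all sites itself moved by 0.29 with TMM, 0.11 with RLE, 0.79 with total counts, −0.05 with loess offsets and 1.26 with shared-peak factors. Under these scalings in the same order, 12, 13, 9, 7 and 8 of the 14 sites were called lower at 72 h against 0 h, and 1, 1, 1, 2 and 2 higher. All gene starts called lower were 73.0%, 75.8%, 61.1%, 53.5% and 36.6%. Calls in the same direction under all 5 scalings at 72 h against 0 h were found at 6 sites, all lower: CCND2, CCNE1, CDKN1B, CDKN1C, CDKN2D and the CDKN2C site shared with FAF1. At 6 h they were found at 5 sites: higher at CDKN1A, and lower at CCND2, CCNE1, CDKN2D and chr6:41939224-41939961 of CCND3. The share of all gene starts called the same way under all 5 scalings was not computed, so these counts cannot be set against a general rate. The CCND2 value at 72 h ran from −2.92 to −1.77 over the scalings. Loess offsets remove the trend of the change with site strength. The order of the members among gene starts was nearly fixed under the other 4 scalings, which shift all sites of a library alike, whereas loess offsets placed CCNE1 above 40.7% and CDKN2D above 43.2% of gene starts at 72 h.

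**Figure D2:**
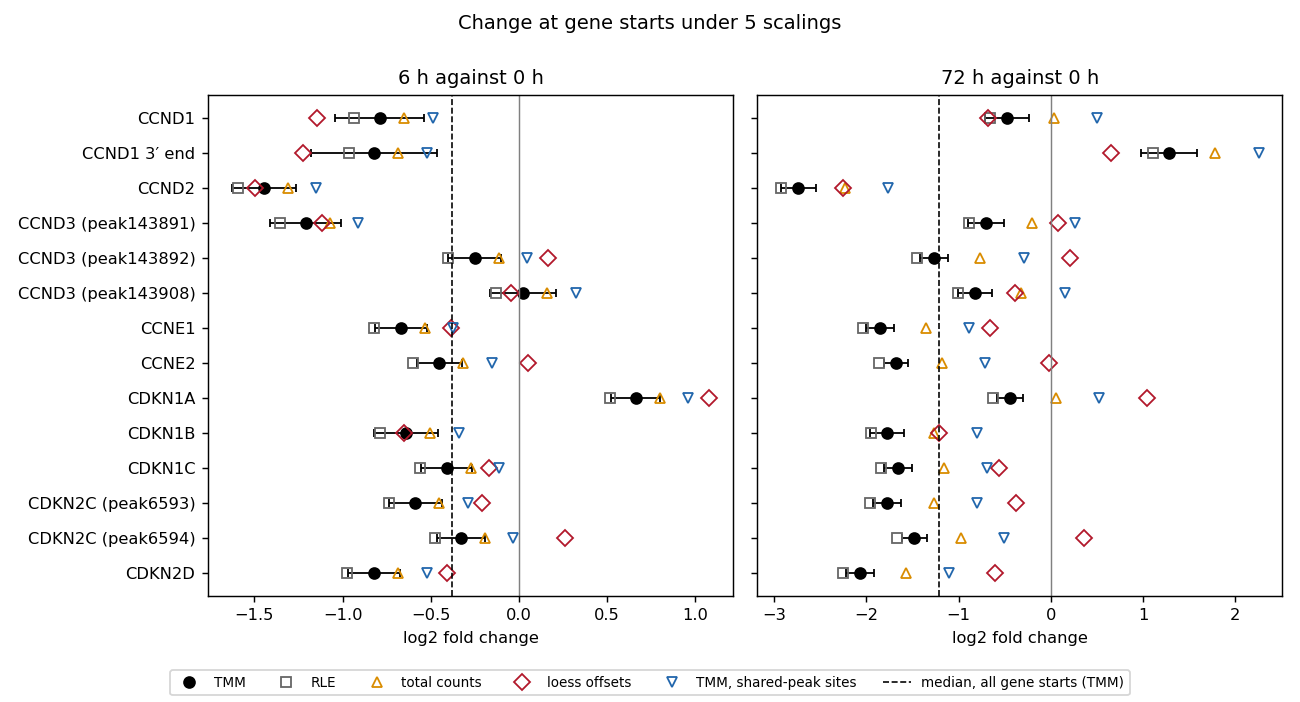
Log2 fold change (x axis) of the 14 sites at starts or ends of the genes at 6 h and at 72 h against 0 h, with 1 marker per scaling, error bars of 1 SE on the TMM value, a solid line at 0 and a dashed line at the median of all gene starts (−0.38 and −1.21). CDKN1A lies right of 0 under all scalings at 6 h, and CCND2 lies far left in both panels, at −1.45 and −2.74 with TMM.

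The remaining sites of the loci were called distal: 22 inside the gene interval of the member, 120 in the flanks and 19 at the start of another protein-coding gene. Either end counted as a start where such a gene had no strand. Exons and introns were not used, as the gene table gives intervals only. Of the 159 tested, 26 were called higher and 32 lower at 6 h, 30 and 64 at 72 h against 0 h, and 11 and 50 at 72 h against 6 h. Among the 118 tested flank sites, 20 were higher and 16 lower at 6 h and 25 higher and 35 lower at 72 h. Over all tested sites away from gene starts, 39.4% were called at 6 h (25.0% higher, 14.4% lower), 65.8% at 72 h against 0 h (41.4% higher, 24.4% lower) and 39.9% from 6 to 72 h (23.9% higher, 15.9% lower). The flank sites of the members had 16.9% higher and 13.6% lower at 6 h and 21.2% higher and 29.7% lower at 72 h. Over time, 18 distal sites were higher at both times and 31 lower at both, 12 were higher at 72 h only and 33 lower at 72 h only, 9 were called at 6 h only, and 0 were called in opposite directions. From 6 to 72 h, all 173 tested sites together gave 13 higher and 61 lower, which became 7 and 37 without replicate 2 at 72 h, and 40 lower without replicate 2 at 6 h. With shared-peak factors, the balance of distal sites at 72 h turned to 71 higher and 26 lower, and with total counts to 51 and 44. With shared-peak factors these were 44.7% and 16.4%, beside 61.9% and 8.14% of all sites away from gene starts. With total counts they were 32.1% and 27.7%, beside 51.7% and 14.9%. The sets differ, because the distal sites include the 19 at starts of other genes, which the sites away from gene starts leave out. Of these 19, 0 were called higher and 16 lower at 72 h against 0 h with TMM. With loess offsets, 31.6% of all sites away from gene starts were higher and 31.7% lower. The shares of all such sites also stand beside the counts per locus given below. Called the same way under all 5 scalings at 72 h were 21 higher and 23 lower distal sites, and at 6 h 21 and 18. The share of all sites called the same way under all 5 scalings was not computed. The sites described below are the strongest distal site of each locus and, among called sites with a mean of at least 1 CPM over the 6 libraries, those with the largest rise and fall at 72 h and the largest change at 6 h. Weaker sites could change more, down to −4.10 at 72 h at the INK4 loci.

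**Figure D3:**
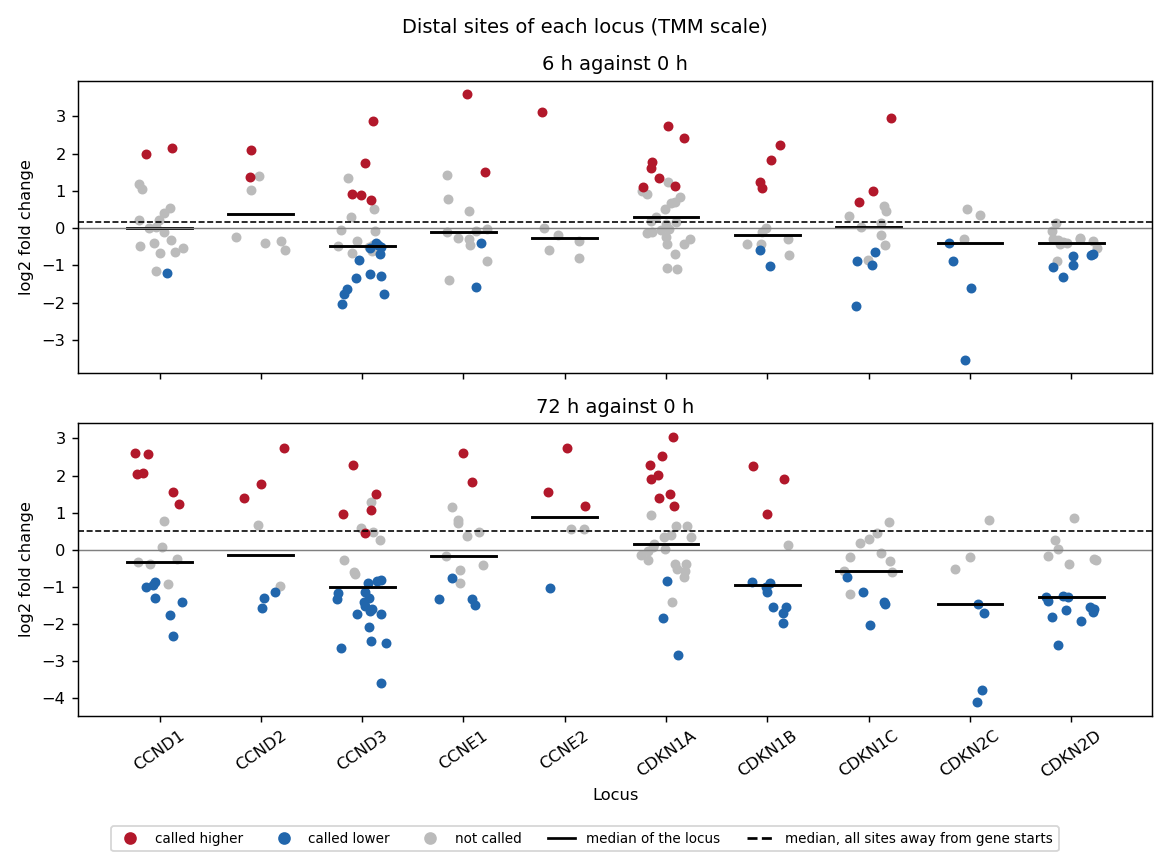
Log2 fold change (y axis, TMM scaling) of each tested distal site by locus, at 6 h (top) and 72 h (bottom) against 0 h, coloured by call, with a bar at the median of each locus and a dashed line at the median of all sites away from gene starts (0.15 and 0.51). The points include sites at starts of other genes, which the dashed line leaves out. No called CDKN2C or CDKN2D site lies above 0, and the called CDKN1A sites at 6 h all do.

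At CDKN1A, 7 of 29 distal sites were called higher and 0 lower at 6 h (at an adjusted p under 0.05 by edgeR), and 8 higher and 3 lower at 72 h. The shares called higher were 24.1% and 27.6%, near and below those of all sites away from gene starts (25.0% and 41.4%). With RLE scaling or loess offsets 3 were called lower at 6 h, and at 72 h total counts gave 14 higher and 2 lower and shared-peak factors 17 and 1. The shares higher, 48.3% and 58.6%, were also below those of all sites away from gene starts, 51.7% and 61.9%. The 7 sites higher at 6 h rose by 1.09 to 2.73 on the log2 scale, and in each the 6 h values were above the 0 h values. The largest of these changes was at chr6:36657957-36658463, 20504 bases upstream of the printed start, with 0.390 and 0.526 CPM at 0 h, 3.75 and 2.66 CPM at 6 h and 4.27 and 3.49 CPM at 72 h. From near absence it came to the same range at both treated times (log2 fold change 2.73, SE 0.41, adjusted p = 1.7e-05 at 6 h, and 3.04, SE 0.39, adjusted p = 7.2e-07 at 72 h). The deepest loss was at chr6:36650995-36651279, from 2.40 and 1.72 CPM at 0 h to 0.682 and 1.11 CPM at 6 h and 0.414 and 0.165 CPM at 72 h, a log2 fold change of −2.82 at 72 h (SE 0.49, adjusted p = 3.6e-05). The strongest distal site, chr6:36660591-36661278, had 8.06 and 12.0 CPM at 0 h, 10.9 and 11.6 CPM at 6 h and 9.34 and 6.15 CPM at 72 h. Its groups overlapped at both times, and it was called at neither.

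**Figure D4:**
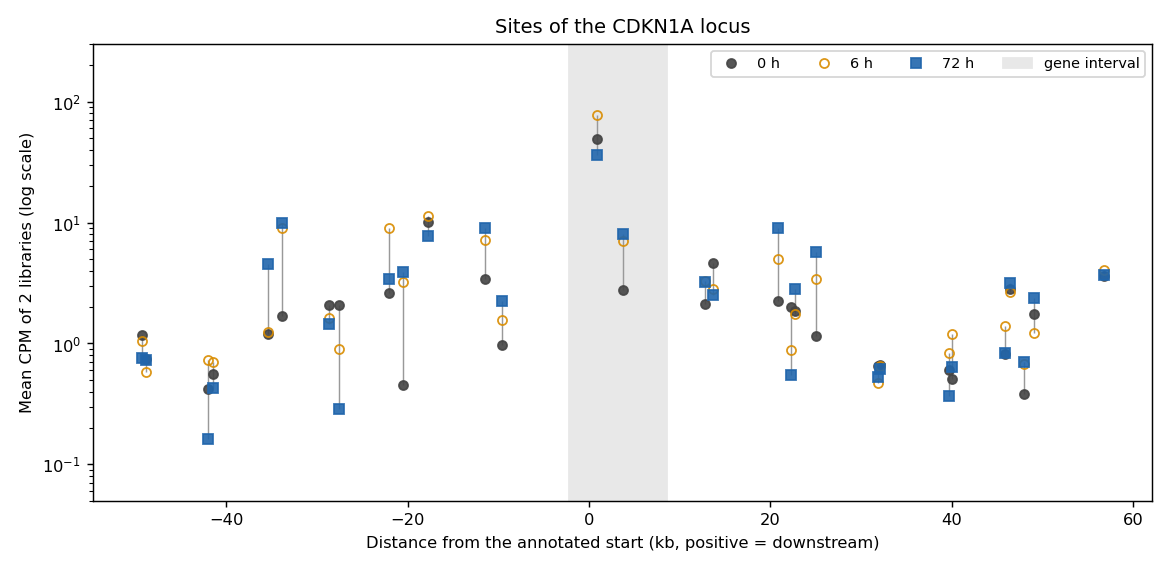
Mean CPM of 2 libraries (log axis) of the 30 sites of the CDKN1A locus by distance in kb from the RefSeq start in the printed window, with the gene interval shaded and a thin line joining the 3 times of a site. The start site is the highest point at each time (49.0, 77.5 and 36.0 CPM at 0, 6 and 72 h), and several upstream sites are lowest at 0 h.

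The other CIP/KIP members had distal sites that moved in both directions. At CDKN1B, 4 of 12 distal sites were called higher and 2 lower at 6 h, and 3 and 8 at 72 h, where total counts gave 3 and 3 and shared-peak factors 4 and 3. The strongest, chr12:12724869-12726150 at the start of APOLD1, had 39.5 and 44.7 CPM at 0 h, 26.5 and 29.2 CPM at 6 h and 11.7 and 9.90 CPM at 72 h. It stepped down without overlap to a log2 fold change of −1.97 at 72 h (SE 0.16, adjusted p = 2.3e-09), which was called under all 5 scalings. Within GPR19, chr12:12672198-12672797 opened from 0.325 and 0.908 CPM at 0 h to 3.66 and 2.56 CPM at 6 h and 2.22 and 2.66 CPM at 72 h (2.22 at 6 h, SE 0.43, adjusted p = 0.0003). Close by, chr12:12673108-12673760 went from 0.585 and 0.955 CPM to 1.70 and 1.64 CPM and then 3.49 and 4.03 CPM (2.25 at 72 h, SE 0.36, adjusted p = 1.3e-05). Both were called higher at 72 h under all 5 scalings, and the first also at 6 h. The second was called at 6 h with TMM (1.07, adjusted p = 0.037) but not with RLE or loess offsets or in 5 of the 6 fits that left out 1 library, and the difference between the 2 sites was not tested.

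At CDKN1C, 3 of 15 distal sites were called higher and 4 lower at 6 h, and 0 higher and 5 lower at 72 h by edgeR with TMM, while at 72 h total counts gave 4 higher and 3 lower, loess offsets 2 and 9, and shared-peak factors 7 and 2. An early gain was seen at chr11:2843959-2844603, within KCNQ1, the neighbouring potassium channel gene. This site had 0.715 and 1.43 CPM at 0 h, 8.44 and 8.70 CPM at 6 h and 1.29 and 2.45 CPM at 72 h, so that 0 h and 72 h overlapped and 6 h stood above both. Its log2 fold change was 2.95 at 6 h (SE 0.36, adjusted p = 1e-06) and −2.19 from 6 to 72 h (SE 0.31, adjusted p = 1.1e-05), both called under all 5 scalings. Whether it was back at its 0 h level by 72 h depended on the scaling. The 72 h value against 0 h was 0.76 with TMM (adjusted p = 0.0788). It was called higher with total counts (1.25, adjusted p = 0.0051) and shared-peak factors (1.73, adjusted p = 0.000333). The largest fall was 5089 bases from the nearer end of the gene, at chr11:2890578-2891151, with 12.0 and 13.8 CPM at 0 h, 5.54 and 8.0 CPM at 6 h and 3.67 and 2.64 CPM at 72 h (−2.03 at 72 h, SE 0.25, adjusted p = 3.2e-07). The strongest distal site, chr11:2928850-2930888, is the start of PHLDA2 and had 50.4 and 60.9 CPM at 0 h, 69.4 and 69.1 CPM at 6 h and 33.4 and 33.1 CPM at 72 h (−0.74 at 72 h, SE 0.14, adjusted p = 9.1e-05, but 0.72 with loess offsets and 0.23 with shared-peak factors).

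All TMM calls against 0 h at distal sites of the INK4 loci were losses. At CDKN2C, 0 of 7 distal sites were called higher and 4 lower at 6 h, and 0 and 4 at 72 h, although shared-peak factors gave 1 and 2 higher. At CDKN2D, 0 of 18 were called higher and 6 lower at 6 h, and 0 and 11 at 72 h, where total counts gave 2 higher and shared-peak factors 5. The largest change was at chr1:51005425-51006014 near CDKN2C, with 4.81 and 3.77 CPM at 0 h, 0.597 and 0.253 CPM at 6 h and 0.285 and 0.330 CPM at 72 h. Nearly all of its signal was gone by 6 h (log2 fold change −3.54, SE 0.47, adjusted p = 3e-06) and it stayed low at 72 h (−3.77, SE 0.42, adjusted p = 1e-07). A strong site downstream of CDKN2C, chr1:50976706-50978887, had 59.4 and 66.0 CPM at 0 h, 44.5 and 50.8 CPM at 6 h and 22.9 and 22.5 CPM at 72 h (−1.47 at 72 h, SE 0.15, adjusted p = 2.1e-08). That call was lost with loess offsets (−0.16, adjusted p = 0.299). CDKN2D lies among other genes, and 8 of its distal sites are counted as starts of such genes. At 72 h, 73.0% of all gene starts were called lower, beside 24.4% of all sites away from gene starts. The strongest, at the start of KRI1, chr19:10565458-10566374, had 42.9 and 39.2 CPM at 0 h, 25.6 and 23.2 CPM at 6 h and 14.1 and 12.8 CPM at 72 h. The deepest fall there was at chr19:10552452-10553173, a site counted as a start of ATG4D, an autophagy protease gene. It went from 7.80 and 10.4 CPM to 3.07 and 4.08 CPM and then 1.22 and 1.84 CPM (−2.57 at 72 h, SE 0.28, adjusted p = 8.6e-08). These KRI1 and ATG4D sites were called lower under all 5 scalings at both times.

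The CCND3 locus combined losses with a few strong gains. Of its 30 distal sites, 5 were called higher and 13 lower at 6 h, and 5 and 18 at 72 h, while shared-peak factors gave 10 higher and 9 lower at 72 h. Inside the long gene interval lay 16 sites, of which 3 rose and 10 fell at 72 h. The largest gain, chr6:41976602-41977334 inside CCND3, went from 1.88 and 3.58 CPM at 0 h to 20.4 and 20.6 CPM at 6 h and 12.8 and 14.7 CPM at 72 h. All treated values were above those at 0 h, with a log2 fold change of 2.87 at 6 h (SE 0.25, adjusted p = 9.9e-09) and 2.30 at 72 h (SE 0.25, adjusted p = 5.4e-08). The deepest loss was also inside the gene, at chr6:41953139-41953595, from 3.90 and 3.06 CPM at 0 h to 1.36 and 0.790 CPM at 6 h and 0.207 and 0.354 CPM at 72 h. It fell by 1.78 on the log2 scale at 6 h (SE 0.41, adjusted p = 0.0015) and by 3.59 at 72 h (SE 0.44, adjusted p = 3.4e-07). Both sites kept their call under all 5 scalings at both times. The strongest distal site, chr6:41894293-41896239 at the start of USP49, had 55.7 and 56.7 CPM at 0 h, 39.6 and 45.4 CPM at 6 h and 22.7 and 22.0 CPM at 72 h (−1.33 at 72 h, SE 0.15, adjusted p = 7.7e-08). That call was lost with loess offsets (−0.09, adjusted p = 0.554). Chosen after its values were seen, a flank site 51419 bases from the far upstream start, chr6:42099250-42100965, rose from 15.5 and 22.1 CPM at 0 h to 53.0 and 74.0 CPM at 6 h and was at 33.2 and 40.7 CPM at 72 h.

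**Figure D5:**
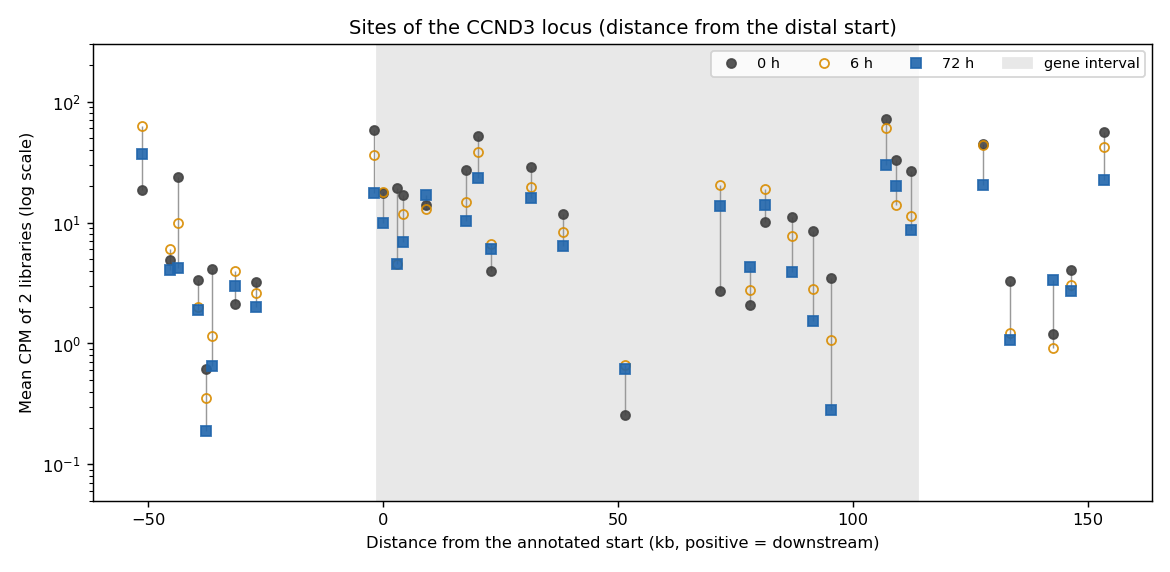
Mean CPM of 2 libraries (log axis) of the 33 sites of the CCND3 locus by distance from its far upstream start in kb, positive towards the 3′ end, with the gene interval shaded and a thin line joining the 3 times of a site. Many sites are lowest at 72 h, while the intragenic site at 2.73 CPM at 0 h stands at 20.5 CPM at 6 h and 13.8 CPM at 72 h.

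At CCND1, 2 of 19 distal sites were called higher and 1 lower at 6 h, and 6 higher and 7 lower at 72 h, with 8 higher and 1 lower under shared-peak factors. The largest early gain was downstream, at chr11:69682097-69682720, with 0.585 and 0.812 CPM at 0 h, 3.07 and 3.29 CPM at 6 h and 4.4 and 4.15 CPM at 72 h (2.16 at 6 h, SE 0.36, adjusted p = 6e-05). Upstream, chr11:69633881-69634526 went from 0.130 and 0.621 CPM at 0 h through 1.36 and 0.538 CPM at 6 h to 2.90 and 2.05 CPM at 72 h. The 0 h and 6 h values overlapped, and the log2 fold change at 72 h was 2.60 (SE 0.53, adjusted p = 0.00019). It rests on 2 and 13 counts at 0 h and was 4.20 without replicate 2 at 0 h. The largest loss, chr11:69685777-69686390, went from 6.24 and 6.12 CPM at 0 h to 4.60 and 4.05 CPM at 6 h and 2.10 and 1.6 CPM at 72 h (−1.74 at 72 h, SE 0.27, adjusted p = 8e-06). The strongest distal site is the start of LTO1, chr11:69674289-69675865, with 37.6 and 45.5 CPM at 0 h, 35.6 and 40.7 CPM at 6 h and 22.2 and 23.2 CPM at 72 h.

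At CCND2, where the start fell so far, 2 of 8 distal sites were called higher and 0 lower at 6 h, and 3 and 3 at 72 h (4 and 0 under shared-peak factors). A site inside the gene, chr12:4287795-4288445, was highest at 6 h: it had 0.455 and 1.00 CPM at 0 h, 3.83 and 2.81 CPM at 6 h and 0.983 and 1.44 CPM at 72 h. The 72 h values overlapped those at 0 h, and the log2 fold change was 2.10 at 6 h (SE 0.43, adjusted p = 0.00048) and 0.68 at 72 h (SE 0.44, adjusted p = 0.17). At 72 h it was called higher with total counts (1.18, adjusted p = 0.0217) and shared-peak factors (1.65, adjusted p = 0.00217), and the fall from 6 to 72 h (−1.42, adjusted p = 0.0039) was lost without replicate 1 at 72 h (−1.13, adjusted p = 0.0929). Nearer the start, chr12:4276848-4277365 fell from 4.55 and 6.54 CPM at 0 h to 3.92 and 3.60 CPM at 6 h and 2.04 and 1.70 CPM at 72 h (−1.58 at 72 h, SE 0.28, adjusted p = 4.6e-05). With shared-peak factors the 72 h call was lost (−0.60, adjusted p = 0.0634). In the upstream flank, chr12:4243427-4244006 had 0.520 and 0.430 CPM at 0 h, 1.62 and 0.980 CPM at 6 h and 1.73 and 1.49 CPM at 72 h (1.76 at 72 h, SE 0.47, adjusted p = 0.0021). The strongest distal site, the start of TIGAR, a metabolic regulator, at chr12:4320695-4321531, had 25.1 and 23.8 CPM at 0 h, 19.7 and 17.7 CPM at 6 h and 9.62 and 10.4 CPM at 72 h. Its 72 h call with TMM was also lost with shared-peak factors (−0.32, adjusted p = 0.0969).

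The E cyclin loci each held a site that opened from almost nothing by 6 h. At CCNE1, 2 of 15 distal sites were called higher and 2 lower at 6 h, and 2 and 4 at 72 h, but 9 and 1 under shared-peak factors. These 60.0% and 6.67% were near the 61.9% and 8.14% of all sites away from gene starts. The largest gain was downstream of the gene at chr19:29826152-29826757, with 0.390 and 0.191 CPM at 0 h, 3.58 and 3.26 CPM at 6 h and 1.24 and 2.17 CPM at 72 h. Its log2 fold change of 3.59 at 6 h (SE 0.50, adjusted p = 5.4e-06) rests on 6 and 4 counts at 0 h, and it was 2.60 at 72 h (SE 0.51, adjusted p = 0.00012). Upstream, chr19:29805803-29806620 fell early, from 7.02 and 8.84 CPM at 0 h to 2.05 and 3.04 CPM at 6 h and 2.77 and 3.54 CPM at 72 h (−1.59 at 6 h, SE 0.28, adjusted p = 0.00011). Whether it stayed low depended on the scaling. With TMM its 72 h value was −1.33 (adjusted p = 0.00014), but with shared-peak factors −0.36 (adjusted p = 0.218). With the latter it rose by 0.93 from 6 to 72 h (adjusted p = 0.0099). The strongest distal site, chr19:29844171-29846065, had 82.6 and 73.5 CPM at 0 h, 59.99 and 58.2 CPM at 6 h and 29.8 and 32.3 CPM at 72 h, and its log2 fold change of −1.33 at 72 h became 0.16 with loess offsets.

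At CCNE2, 1 of 6 distal sites was called higher and 0 lower at 6 h, and 3 and 1 at 72 h. The strongest of them was also the one that gained most, chr8:94907394-94908187 inside NDUFAF6, 11097 bases from the nearer end of CCNE2. It went from 0.910 and 1.1 CPM at 0 h to 10.5 and 7.53 CPM at 6 h and 7.11 and 6.39 CPM at 72 h. The treated values were all well above those at 0 h, with a log2 fold change of 3.12 at 6 h (SE 0.31, adjusted p = 5.6e-08) and 2.73 at 72 h (SE 0.30, adjusted p = 8.9e-08), called under all 5 scalings. Its neighbour chr8:94905156-94905761 had 5.52 and 4.01 CPM at 0 h, 4.35 and 3.23 CPM at 6 h and 2.12 and 2.48 CPM at 72 h (−1.04 at 72 h, SE 0.29, adjusted p = 0.0029). That call was lost with total counts (−0.54, adjusted p = 0.0988) and with shared-peak factors (−0.08, adjusted p = 0.825).

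Peaks called by the authors in each library gave another view of the same sites. Of the 175 sites, 70 overlapped a peak in both 0 h libraries, 72 in both 6 h libraries and 104 in both 72 h libraries, and 86, 75 and 29 overlapped none at these times. The 0 h libraries held 61873 and 69152 peaks in the whole genome, the 6 h libraries 65336 and 93015, and the 72 h libraries 138914 and 142305, so that peaks became more numerous at 72 h in the genome as well. These totals count peaks and not sites. The share of all listed sites with a peak in both libraries was not computed, so the site counts cannot be set against a general rate. The CCND2 start kept a peak in both libraries at each time, and so did the starts of CCNE1, CCNE2, CDKN1A, CDKN1B, CDKN1C, CDKN2C and CDKN2D.

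The other genes of the pathway were taken from a list of 30 partners and regulators, such as the kinase genes CDK2, CDK4 and CDK6, the E2F and DP factor genes, and SKP2 and CKS1B, which act in the degradation of p27. Of these, 27 had a tested start site, the strongest of which was used, and RB1, CDKN2A and CDKN2B are not analysed here. At 6 h 0 were called higher and 17 lower, and at 72 h 0 higher and 27 lower, with a median log2 fold change of −0.43 and −1.54. This stands beside 38.3% and 73.0% lower among all gene starts. With loess offsets 3 were higher and 9 lower at 6 h, and 1 higher and 13 lower at 72 h. The shares lower, 33.3% and 48.1%, were near those of all gene starts with these offsets, 30.5% and 53.5%. With shared-peak factors 0 were higher at either time, and 4 were lower at 6 h and 21 at 72 h. These were 14.8% and 77.8% lower, beside 10.1% and 36.6% of all gene starts. Named after their values were seen, the kinase gene CDK4 had a mean of 80.9 CPM at 0 h, 42.9 CPM at 6 h and 26.7 CPM at 72 h, and E2F8, one of the repressive E2F factors, 92.2, 59.9 and 20.6 CPM.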

How the data were processed

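The 10 genes, the lists and the tests were chosen with earlier results of these data known. Reads per site and library, whole-number counts for 181135 sites on hg38, were deposited by the authors in 1 table of 6 libraries. The submitters' processing notes name Trim Galore 0.4.3, BWA 0.7.17, SAMtools 1.9, deepTools 3.0.1, MACS2, bedtools 2.26 and DESeq. Which tool did which step, the read filters, the transposase shift and how sites were merged are not given in the sources used here. The same table holds the authors' log2 fold changes and adjusted p-values for the 2 times. The 2 columns of adjusted p-values are identical, whereas the log2 fold changes differ. The peak lists, 1 per library, were deposited with a score, a fold enrichment (ratio) and −log10 p and q values for each peak, which are the authors' own.

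The table's starts count from 0 and were converted to count from 1. Sites within 50000 bases of a gene interval were taken, and sites within 1000 bases of a RefSeq start (GRCh38.p14), or of either end of a gene with no strand in the tables used, were start sites. Sites with too few counts were removed (edgeR 4.0.16 filterByExpr, minimum count 10), which took out 3376. Counts were scaled by TMM and tested with edgeR's quasi-likelihood test over all 6 libraries (R 4.3.3, limma 3.58.1), with Benjamini-Hochberg adjustment over 177759 sites and a call at an adjusted p under 0.05. The procedure was tested on simulated data. Alternatives were RLE, total-count, loess and shared-peak scaling, no count filter, DESeq2 1.42.0, a replicate block, leaving out each library, a stricter call, and other windows and peak thresholds. Per-library counts in sites ran from 12258890 to 35548737, and with 2 libraries per group the spread between libraries, not counting error, limits the precision. Sites named were the start sites of each gene, its strongest distal site, and, at a mean of at least 1 CPM, the called distal sites with the largest changes. Exceptions are stated.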

Additional observations from a re-analysis of the deposited data

Results flagged for a closer look

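The CDKN1A start site, chr6:36678324-36680958, stood out because its libraries moved in opposite directions at the 2 times with TMM scaling: both were above 0 h at 6 h and both below 0 h at 72 h. The 72 h value against 0 h was −0.44 with TMM and −0.63 with RLE, but 0.0577 with total counts, 0.52 with shared-peak factors and 1.04 with loess offsets. Its log2 fold change from 6 to 72 h, which tests the difference between the 2 times directly, was −1.11 (SE 0.14, edgeR adjusted p = 3e-06). It was −1.14 with RLE, −0.74 with total counts, −0.44 with shared-peak factors and −0.04 with loess offsets (adjusted p = 0.827), so that the call was lost under loess offsets. Groups of 2 libraries were too small for a check of single libraries against the rest of their group.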

How the results depend on the processing

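Counts are of the 173 tested sites at the loci. At 6 h against 0 h, the 41 lower calls became 22 with shared-peak factors and 14 with the stricter call (adjusted p below 0.01 with a change beyond 1 on the log2 scale in either direction), and ran from 29 to 42 when 1 library was left out; the 27 higher calls ran from 22 to 30. At 72 h against 0 h, the 31 higher calls became 52 with total counts and 73 with shared-peak factors (23 to 32 without 1 library), and the 76 lower calls became 34 with shared-peak factors (62 to 76). At 72 h against 6 h, the 13 higher calls became 27 with total counts, 44 with shared-peak factors, 8 with DESeq2 and 7 with the stricter call (7 to 15 without 1 library), and the 61 lower calls became 21 with shared-peak factors and 34 with the stricter call (37 to 66). Higher sites as a share of called sites at 72 h against 0 h were 29.0% with TMM, 25.9% with RLE, 49.5% with total counts, 24.3% with loess offsets and 68.2% with shared-peak factors. Of the 14 start sites, the 10 called at 6 h became 5 with shared-peak factors (6 to 12 without 1 library), the 13 called at 72 h against 0 h ran from 11 to 14, and the 13 called at 72 h against 6 h became 5 with loess offsets (12 to 13). The 72 sites that overlapped peaks of both 6 h libraries became 47 when peaks had to cover 50% of a site.

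Among results at named sites that were called with TMM or under the alternative, these log2 fold changes turned from negative to positive with loess offsets: CCND3 chr6:41939224-41939961 at 72 h (0.078), CCND3 chr6:41941194-41942450 at 72 h (0.21) and from 6 h (0.0421), CCNE2 at 6 h (0.0505), the CDKN1A start at 72 h (1.04), CDKN2C chr1:50967899-50970370 at 72 h (0.36) and from 6 h (0.10), the LTO1 start near CCND1 at 72 h (0.25) and from 6 h (0.12), the USP49 start near CCND3 from 6 h (0.0052), CCNE1 chr19:29844171-29846065 at 6 h (0.0187), 72 h (0.16) and from 6 h (0.14), and the PHLDA2 start near CDKN1C at 72 h (0.72). With shared-peak factors they were CCND3 chr6:41939224-41939961 (0.26) and chr6:42048393-42049065 (0.15), CDKN1A start (0.52), LTO1 start (0.10), CDKN1A chr6:36660591-36661278 (0.59) and PHLDA2 start (0.23) at 72 h against 0 h, and CCND3 chr6:41976602-41977334 from 6 h (0.0990). With total counts the CDKN1A start at 72 h turned (0.0577). Results called under neither could change sign too, such as CCND3 chr6:41941194-41942450 (0.16) and CDKN2C chr1:50967899-50970370 (0.26) at 6 h with loess offsets. The cause was not tested.

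With the replicate number as a block, 74, 108 and 77 sites were called in the 3 comparisons, beside 68, 107 and 74 without it. At the named sites the block changed 6 calls, all gained. Libraries with the same replicate number also share an ending of their deposited names, whose meaning is not given. The correlations of their deviations were 0.082, 0.053 and 0.085, all under 0.1. Such correlations cannot settle whether these libraries came from a common culture or preparation. Depth limits the weakest sites, such as the 6 and 4 counts at 0 h at the CCNE1 site that opened.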

Other observations

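The authors' deposited table gives each site a class name for its course over time, and these names did not track the sign of the authors' own fold changes. In the authors' deposited table, 69.5% of sites classed downEarly and 71.9% of those classed downLate had a log2 fold change above 0 at 72 h, beside 69.3% of upEarly, 71.1% of upLate and 47.6% of static sites. The CCND2 start is classed upEarly in the authors' deposited table, where its log2 value is −1.56 for 6 h and −2.90 for 72 h. Of the 175 sites at the loci, 151 are classed static, 10 downEarly, 1 downLate, 4 upEarly and 9 upLate. The class names were therefore not used. The sign at 72 h in the authors' deposited table was that of the edgeR estimate at 167 of 173 sites, with a median difference of −0.15.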
